A study of Mus musculus with 2 samples.

Results

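Complement genes were followed through the cell types of the atherosclerotic mouse aorta. The 9 genes were taken by symbol, out of the 32285 genes of the deposited matrices. They are the 3 chains of C1q (C1qa, C1qb and C1qc), the components C3, C4b, Cfb (factor B) and C7, the inhibitor Serping1 and the receptor C3ar1. All 9 were found in both matrices.

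Complement is a cascade of plasma and tissue proteins that tags surfaces for uptake by phagocytes, recruits inflammatory cells and can form pores in membranes. The classical branch starts when C1q binds antibody, dying cells or other ligands and activates the proteases C1r and C1s, which cleave C4 and C2, and the alternative branch amplifies deposition of C3 through factor B. Liver makes most plasma components, C1q comes largely from macrophages and related cells, and fibroblasts of the vessel wall can make several components locally.

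The series held single-cell RNA-seq of mouse aorta in 2 libraries, 1 per group. Both groups lacked ApoE on the C57BL/6 strain and ate a Western diet, a combination that produces atherosclerotic lesions. The control library is called WT, and the EC-iCD45KO library came from mice in which CD45 (Ptprc) was deleted from endothelial cells (EC) by a tamoxifen-inducible system. Dissociated cells were enriched with beads against the endothelial surface protein CD31. The Cre driver, the age of the mice, the time on diet, the number and pooling of animals and whether control mice received tamoxifen were not given in the sources used here. With 1 library per group no difference between the libraries could be tested, and the deletion, the animal and the preparation cannot be told apart. Levels are CPM, the UMI counts of a gene per 1000000 UMIs of the cells named. UMIs are tags that let each captured RNA molecule be counted once. Intervals are 95% intervals that cover counting error only, and a log2 ratio is EC-iCD45KO over WT. Values given in pairs are WT first and EC-iCD45KO second.

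The filters kept 35553 WT and 26064 EC-iCD45KO cells, with medians of 1616 and 1510 UMIs, and 340 barcode sequences occurred in both libraries. Cells were grouped into 30 clusters and 15 named classes by markers other than the 9 genes, and 19.1% and 6.68% of cells stayed unnamed. The libraries differed in make-up: macrophage-like cells were 10.4% and 36.7% of cells, and B-like cells 16.2% and 1.29%. Ptprc, the deleted gene, was at 311 CPM in WT and 116 CPM in EC-iCD45KO EC-like cells. It was also lower in macrophage-like (501 and 284 CPM) and T/NK-like cells (1127 and 913 CPM), and higher in B-like cells (753 and 1259 CPM), so a lower level was not limited to EC. Summed markers of other cells in the same EC-like cells were 1763 and 611 CPM for B cells, 353 and 56.4 CPM for T/NK cells and 2114 and 4246 CPM for macrophages, and their part in the Ptprc values was not tested. Hepatocyte markers together were at 0.959 and 1.58 CPM, and epithelial or kidney tubule markers at 34.97 and 25.97 CPM.

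In GRCm38 all 9 genes lie on minus strands, and none overlaps another annotated gene. The C1q genes are neighbours: C1qb (ENSMUSG00000036905, chr4:136880129-136886187), C1qc (ENSMUSG00000036896, chr4:136889804-136893065) and C1qa (ENSMUSG00000036887, chr4:136895917-136898803). Chromosome 17 carries C4b (ENSMUSG00000073418, chr17:34728380-34743882), Cfb (ENSMUSG00000090231, chr17:34856374-34862518) and C3 (ENSMUSG00000024164, chr17:57203970-57228136). The others are Serping1 (ENSMUSG00000023224, chr2:84765387-84775444), C3ar1 (ENSMUSG00000040552, chr6:122847138-122856161) and C7 (ENSMUSG00000079105, chr15:4988762-5063740). C4a, a near-identical copy of C4b at chr17:34809092-34823464, reached at most 3.03 CPM, and because reads may be split between the pair the C4b values are uncertain.

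Promoters were matched in RefSeq for C1qb, C1qc, C3ar1, C7 and C3. The 250 bases before the RefSeq start are shown for C1qb and C1qc, whose levels ran in parallel across cell classes. They are also shown for C3ar1, which shared their class pattern, and for C3, as a gene of the fibroblast pattern. They are RefSeq sequence on GRCm38.p6, at chr4:136886201-136886450, chr4:136892915-136893164, chr6:122856158-122856407 and chr17:57228137-57228386 in that order, read 5′ to 3′ on the minus strand, with matches to the motifs named afterwards in capitals.
C1qb: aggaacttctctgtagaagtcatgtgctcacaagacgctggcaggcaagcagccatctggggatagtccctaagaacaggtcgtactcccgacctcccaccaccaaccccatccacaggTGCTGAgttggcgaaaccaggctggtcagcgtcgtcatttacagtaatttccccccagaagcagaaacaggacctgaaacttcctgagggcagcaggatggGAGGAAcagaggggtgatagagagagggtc
C1qc: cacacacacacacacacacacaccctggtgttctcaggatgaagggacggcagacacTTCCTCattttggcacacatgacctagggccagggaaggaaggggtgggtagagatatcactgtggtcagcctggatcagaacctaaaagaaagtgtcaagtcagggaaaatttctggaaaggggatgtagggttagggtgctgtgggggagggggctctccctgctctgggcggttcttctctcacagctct
C3ar1: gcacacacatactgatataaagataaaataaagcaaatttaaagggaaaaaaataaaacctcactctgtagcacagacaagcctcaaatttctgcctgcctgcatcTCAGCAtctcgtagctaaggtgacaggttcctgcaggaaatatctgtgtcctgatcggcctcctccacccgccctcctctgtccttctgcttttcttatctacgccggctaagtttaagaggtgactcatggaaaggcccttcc
C3: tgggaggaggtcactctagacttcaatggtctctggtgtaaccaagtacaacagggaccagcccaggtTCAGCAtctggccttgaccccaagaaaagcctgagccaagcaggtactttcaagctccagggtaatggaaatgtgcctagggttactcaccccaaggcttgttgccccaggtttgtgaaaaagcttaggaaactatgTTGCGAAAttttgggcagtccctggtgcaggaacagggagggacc
Motifs were searched on both strands, and positions count back from the RefSeq start, which can differ from the end of the gene span given above. For C1qc it lies inside that span (end 136893065), so part of the C1qc window is within the gene as annotated there. For C3ar1 it lies a few bases inside (end 122856161). Positions in different genes are therefore not distances from the annotated gene ends. GAGGAA, a core read by ETS factors such as PU.1, lay at -30 in C1qb and at -193 in C1qc, and occurred in 23.3% of all 32851 promoter windows of that length. TGCTGA, a core read by MAF factors, lay at -131 in C1qb, -144 in C3ar1, -182 in C3 and -20 in C7, and occurred in 16.1% of windows. TTGCNNAA, a C/EBP pattern, lay at -45 in C3 and occurred in 9.56% of windows. The interferon-stimulated response element was in none of the 5 windows and in 2.98% of all windows. The matches did not overlap one another.

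The 9 genes fell into a macrophage pattern (the C1q chains and C3ar1) and a fibroblast pattern (C3, C4b, Cfb, C7 and Serping1), in both libraries. Macrophage-like cells held 57.6% and 77.5% of C1qa UMIs in WT and EC-iCD45KO, and 59.8% and 77.7% of C3ar1 UMIs. Fibroblast-like cells, 5.71% and 8.95% of cells, held 76.3% and 82.4% of C7, 56.2% and 65.5% of Serping1, 52.5% and 61.7% of C3, 44.3% and 64.7% of Cfb and 33.7% and 40.6% of C4b UMIs.

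**Figure D1:**
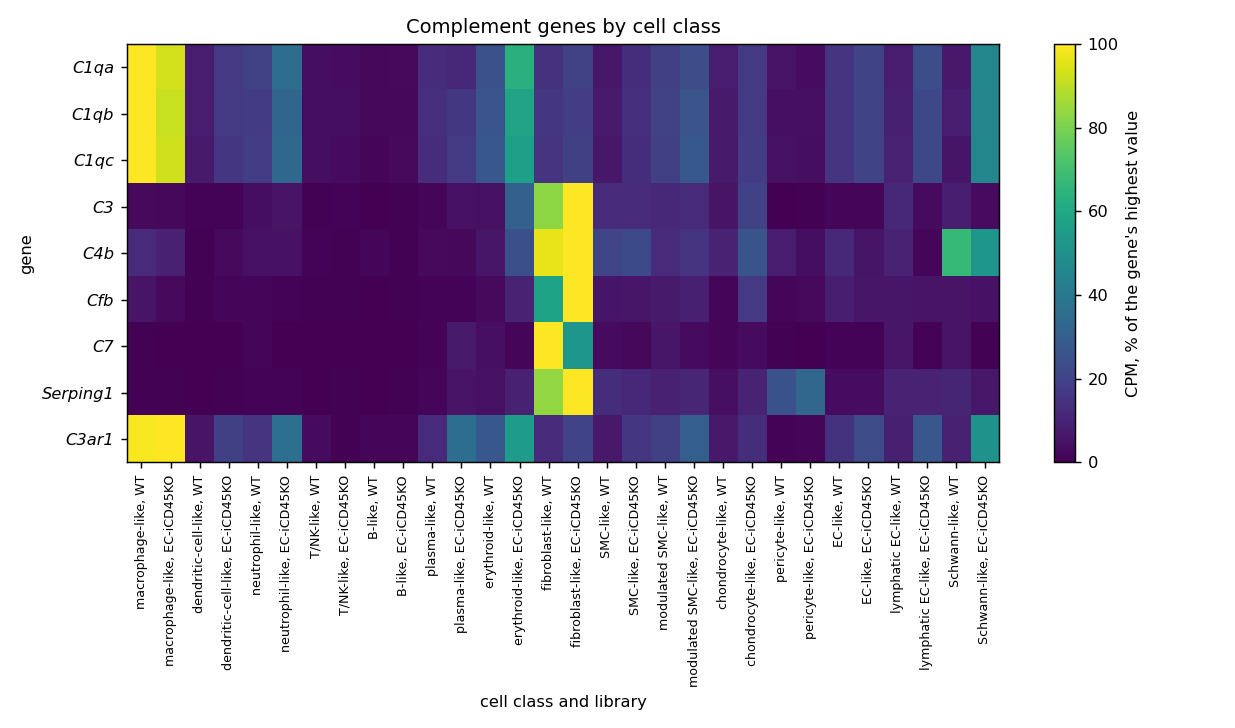
Level of each of the 9 genes in the 15 named cell classes of each library, coloured as a percentage of that gene's highest CPM. The C1q chains and C3ar1 are highest in macrophage-like cells and the other 5 genes in fibroblast-like cells, in WT and in EC-iCD45KO.

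C1q, the recognition molecule of the classical branch, was highest in macrophage-like cells. C1qa stood at 5045 and 4695 CPM in WT and EC-iCD45KO, with intervals of 5007 to 5082 and 4673 to 4718 CPM. C1qb stood at 6326 and 5804 CPM and C1qc at 3375 and 3134 CPM. The 3 chains were thus slightly lower in EC-iCD45KO by near-equal log2 ratios of -0.10, -0.12 and -0.11. Without the monocyte-derived cells described next, 9.46% and 16.6% of the class, the ratios were 0.039, 0.0084 and 0.041, of the other sign. A C1qa UMI was found in 79.1% and 80.9% of macrophage-like cells thinned to 1000 UMIs (81.9% and 85.1% unthinned). Thinning, here and below, left out cells under 1000 UMIs, in this class 503 of 3711 and 2887 of 9559. After thinning the other classes ranged from 8.71% and 10.2% in B-like cells, the lowest, to 57.1% and 69.8% in erythroid-like cells. Fibroblast-like cells had 44.1% and 53.7%. The largest macrophage-like cluster differed between libraries: it was led by Gpnmb and Mmp12 in WT (1523 cells) and by Lyz1 and Aif1 in EC-iCD45KO (3319 cells, median 791 UMIs).

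C1q ranged more widely between kinds of macrophage than between libraries. C1qa was highest in a sub-cluster led by Nes and Apbb2 (6969 and 6877 CPM). Resident macrophages, led by Ccl8 and the mannose receptor gene Mrc1, had 6199 and 5781 CPM, and foamy, lipid-laden macrophages, led by Gpnmb and Fabp5, had 5870.4 and 4775 CPM. Monocyte-derived macrophages, led by Cxcl3 and Plcb1, were lowest of the 5 sub-clusters for all 3 chains, with 1015 and 1309.9 CPM of C1qa, 1574 and 1907 CPM of C1qb and 663 and 812 CPM of C1qc. Within each library the counting intervals of C1qa in these 4 sub-clusters did not overlap.

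A sub-cluster led by the interferon-response genes Rsad2 and Ifit3 (484 and 234 cells) had the largest ratio in C1q between libraries among the 5 macrophage sub-clusters. C1qa was at 2831 and 5515 CPM, a log2 ratio of 0.96 (0.91 to 1.02). C1qb was at 3761 and 6773 CPM (log2 ratio 0.85) and C1qc at 1598 and 3458 CPM (1.11). The EC-iCD45KO cells of this sub-cluster were thus near the foamy and resident levels, and the WT cells lay between those and the monocyte-derived level. Macrophage markers summed to 9931 and 14678 CPM in them and T/NK markers to 189 and 38.9 CPM, and their part in the C1q gap was not tested.

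Detection of all 3 chains in 1 cell, again after thinning, gave the same contrast between sub-clusters. It was 95.6% and 94.9% in the Nes/Apbb2 cells, 90.0% and 90.5% in resident and 85.8% and 77.1% in foamy macrophages. It was 39.6% and 73.3% in the Rsad2/Ifit3 cells and 14.7% and 24.3% in monocyte-derived macrophages. In T/NK-like and B-like cells, which are not known for making C1q, it was 1.49% and 1.35% (T/NK-like) and 0.521% and 1.28% (B-like). Other leukocytes were higher, with 14.7% and 25.3% in neutrophil-like and 6.31% and 24.3% in dendritic-cell-like cells. The monocyte-derived macrophages were thus no higher than the neutrophil-like cells.

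**Figure D2:**
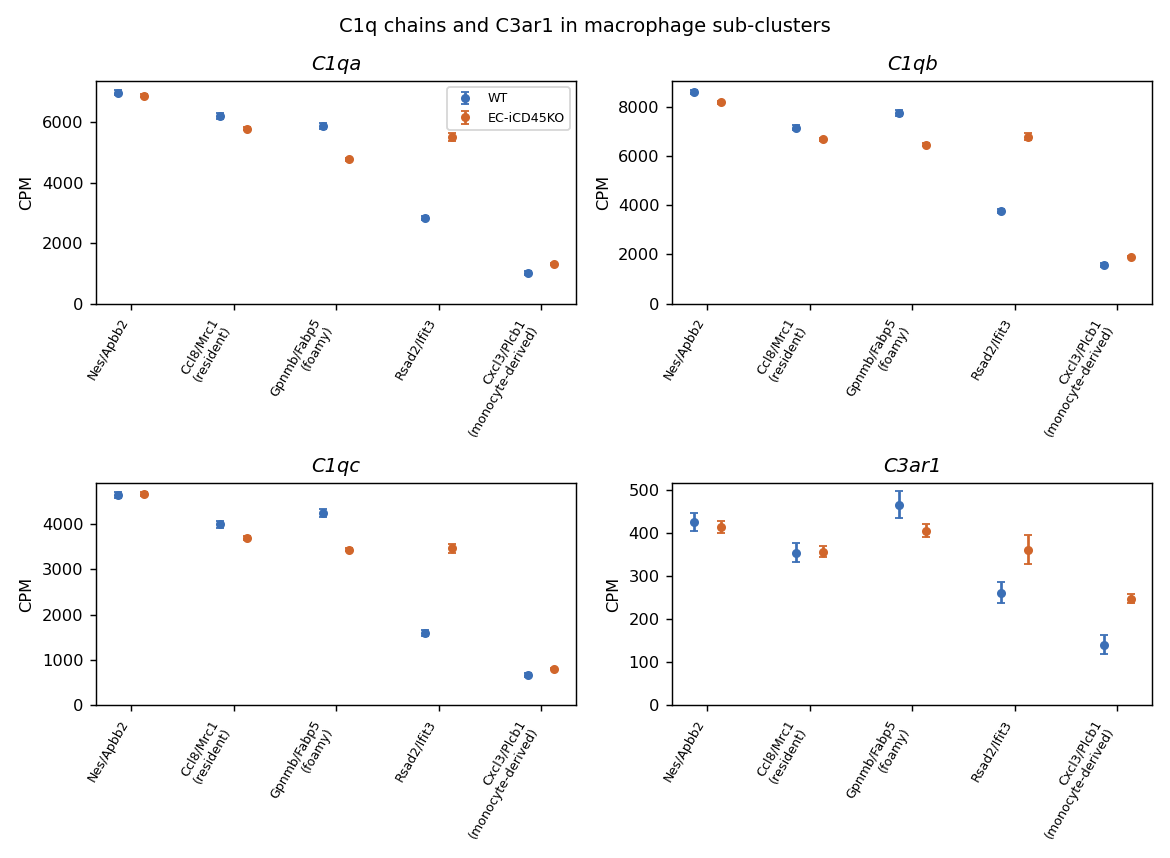
CPM of C1qa, C1qb, C1qc and C3ar1 in 5 macrophage sub-clusters of both libraries, with exact Poisson 95% intervals. All 4 genes are lowest in monocyte-derived macrophages, and of these sub-clusters the Rsad2/Ifit3 one differs most in C1qa between libraries (2831 and 5515 CPM).

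UMIs of C1q appeared in every class, and classes with more of them also held more macrophage-marker UMIs, with exceptions. Over the 14 other classes the summed C1q level ran from 292 CPM in B-like to 3839 CPM in erythroid-like cells of WT, and from 351 to 8802 CPM in the same classes of EC-iCD45KO. All 10 macrophage markers were detected in each of these classes, at sums of 277 to 5364 CPM and 484 to 8871 CPM. C1q UMIs per macrophage-marker UMI had medians of 1.06 in WT and 0.772 in EC-iCD45KO, and macrophage-like cells themselves had 1.06 and 0.746. Neutrophil-like cells had the lowest value in WT, 0.505, and plasma-like cells the lowest in EC-iCD45KO, 0.352. The chains stood in similar proportions, with median ratios of C1qb to C1qa of 1.30 in WT and 1.25 in EC-iCD45KO, beside 1.25 and 1.24 in macrophage-like cells, though single classes ran from 1.01 to 1.79.

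Between libraries C1qa and the macrophage markers moved in the same direction in 11 of these 14 classes and in opposite directions in 3. C1qa was at 354 and 2309 CPM in Schwann-like cells, where macrophage markers were at 980.2 and 6813 CPM, and at 331 and 656 CPM in SMC-like (smooth muscle) cells, where they were at 984 and 2596 CPM. The exceptions were plasma-like cells, with C1qa at 639 and 572 CPM and markers at 1448 and 6157 CPM, pericyte-like cells, with 266 and 162 CPM and 653 and 687 CPM, and T/NK-like cells, with 190.4 and 166 CPM and 471 and 616 CPM. In EC-like cells C1qa was at 759 and 1041 CPM. In the 61 WT and 66 EC-iCD45KO EC-like cells with no UMI of the macrophage, SMC, fibroblast, T/NK or B markers it was at 151 CPM (75.4 to 270.1) and 274 CPM (168 to 424). The same restriction left macrophage-like cells at 4719 and 4112 CPM. The part of macrophage RNA in these values was not tested.

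**Figure D3:**
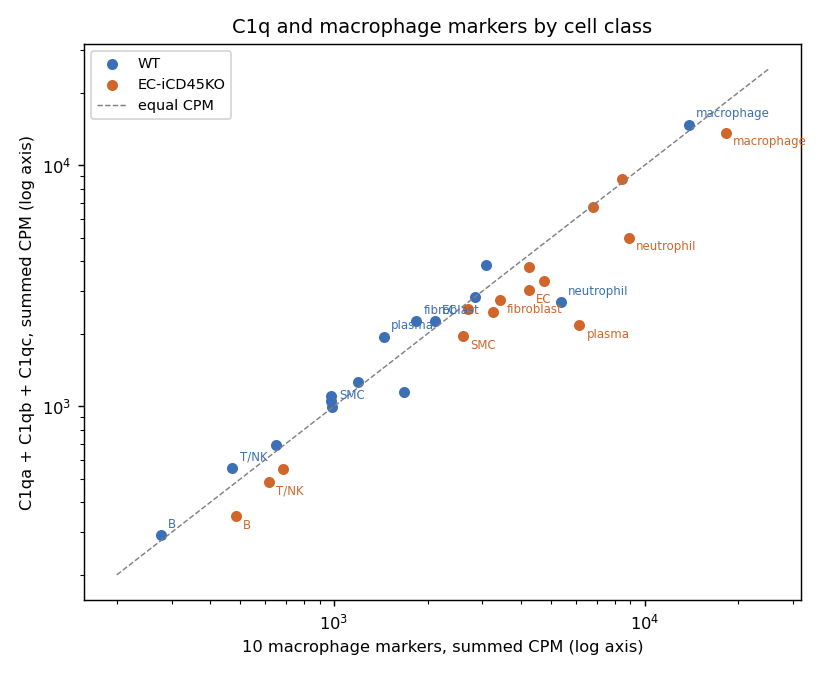
Summed CPM of C1qa, C1qb and C1qc against the summed CPM of 10 macrophage markers on log axes, 1 point per named class and library; the dashed line marks equal CPM. WT points lie around the line (median ratio 1.06 over the 14 other classes) and EC-iCD45KO points mostly lie under it (median 0.772).

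C4b, a component of the classical and lectin branches, was at 389 and 402 CPM in fibroblast-like cells, a log2 ratio of 0.049 (-0.045 to 0.14). The class consisted of 2 clusters, one led by Saa3 and Clec3b (1697 and 1870 cells) with 226 and 221 CPM and one led by Sfrp4 and Ccl19 (333 and 463 cells) with 612 and 552 CPM. Smaller groups within the class differed more between libraries. In the Dpep1-type sub-cluster led by Ren1 and Penk (325 and 345 cells) C4b was at 665 and 344 CPM (log2 ratio -0.95), and in the sub-cluster led by Saa3 and Chil1 (42 and 363 cells) at 493 and 703 CPM (0.51). The Saa3/Chil1 cells were 2.07% and 15.6% of the class and held 127 of 1526 and 1295 of 2382 C4b UMIs. Without them C4b was at 381 and 266 CPM, lower in EC-iCD45KO with a log2 ratio of -0.52 (-0.63 to -0.40), and without the Ren1/Penk cells (16.0% and 14.8% of the class) the ratio was 0.63. In fibroblast-like cells without other classes' markers the log2 ratio was -0.25.

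C4b was also found in smooth muscle, in glia and in some macrophages and EC. SMC-like cells held 16.5% and 20.9% of C4b UMIs, at 84.4 and 90.9 CPM, and modulated Mmp13/Mmp3 cells among them had 103 and 165 CPM. The separate modulated SMC-like class had 48.7 and 62.8 CPM. Schwann-like cells had 269 and 211 CPM. Resident macrophages had 183 and 103 CPM, a log2 ratio of -0.82 (-0.98 to -0.66), while Nes/Apbb2 macrophages had 10.8 and 11.0 CPM. Arterial EC led by Sfrp1 and Frmd5 had 223 and 109 CPM, a log2 ratio of -1.03 (-1.39 to -0.69), with fibroblast markers at 1560.4 and 2174 CPM, and capillary EC had 0.835 and 6.30 CPM. The Sfrp1/Frmd5 cells were 12.1% and 5.92% of EC-like cells.

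C3, on which all branches converge, was at 2007 CPM (1963 to 2051) in WT fibroblast-like cells and 2422 CPM (2383 to 2462) in the EC-iCD45KO ones, giving a log2 ratio of 0.27 (0.23 to 0.31). The clusters that make up the class had 1149.9 and 1425 CPM (Saa3/Clec3b) and 3179 and 3249.8 CPM (Sfrp4/Ccl19), neither lower in EC-iCD45KO. The direction turned without the Saa3/Chil1 cells, which held 790 of 7879 and 7774 of 14355 C3 UMIs: the other cells of the class had 1932 and 1612 CPM, a log2 ratio of -0.26 (-0.31 to -0.21). Without the Ren1/Penk cells it was 0.85. The small sub-clusters had opposite signs, 3462 and 2113 CPM in Ren1/Penk cells (log2 ratio -0.71) and 3069.5 and 4219 CPM in Saa3/Chil1 cells (0.46), the latter resting on 42 WT cells. A C3 UMI was found in 62.8% and 63.5% of thinned fibroblast-like cells (64.6% and 66.7% unthinned), and in 0.856% and 1.60% of B-like cells. In the 32 and 55 fibroblast-like cells with no UMI of other classes' markers the log2 ratio was -0.038, and with a stricter cell filter 0.55.

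Smooth muscle was the next source of C3 by number of UMIs, holding 17.4% and 17.1%. SMC-like cells had 295 and 295 CPM, a log2 ratio of 0.0028 (-0.069 to 0.075), with fibroblast markers at 11984 and 9218 CPM. Modulated cells among them, led by the matrix metalloproteinase genes Mmp13 and Mmp3, had 360.0 and 585 CPM (log2 ratio 0.70), and cells led by Cnn1 and Sost had 116 and 138 CPM. The level was thus higher in the Mmp13/Mmp3 than in the Cnn1/Sost cells in both libraries. The separate modulated SMC-like class (2754 and 561 cells) had 268 and 297 CPM, a smaller gap between libraries than in the Mmp13/Mmp3 cells. Among macrophages C3 was highest in monocyte-derived cells, 169.5 and 102 CPM, with fibroblast markers at 306 and 336 CPM. In Rsad2/Ifit3 macrophages it was at 129 and 46.3 CPM, a log2 ratio of -1.48 (-1.93 to -1.05), with fibroblast markers at 304 and 276 CPM. Fibroblast-like cells had 22516 and 26161 CPM of those markers.

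Cfb, the protease of the alternative convertase, was at 431 CPM (410.4 to 452) in WT fibroblast-like cells and 742 CPM (719.9 to 764) in the EC-iCD45KO ones, giving a log2 ratio of 0.78 (0.70 to 0.87). It was higher in EC-iCD45KO in both clusters of the class, at 249 and 389 CPM (Saa3/Clec3b) and 679 and 1034 CPM (Sfrp4/Ccl19). The class ratio was near 0 without a small group of cells. Saa3/Chil1 cells held 377 of 1691 Cfb UMIs in WT and 2840 of 4395 in EC-iCD45KO, and without them Cfb was at 358 and 381 CPM, a log2 ratio of 0.089 (-0.018 to 0.20). Without the Ren1/Penk cells it was 1.10, past 2-fold. Within both sub-clusters the ratios were nearer 0. Saa3/Chil1 cells had the highest Cfb of all classes and sub-clusters, 1465 and 1541 CPM, with a log2 ratio of 0.073 (-0.082 to 0.23). Ren1/Penk cells had 546 and 495 CPM, with a log2 ratio of -0.14 (-0.30 to 0.014). The class ratio ran from 0.085 in cells without other classes' markers to 1.12, past 2-fold, under a stricter cell filter.

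Venous EC, led by Ackr1 and Csf3, had 129.7 and 98.2 CPM of Cfb, above the 56.7 and 28.9 CPM of capillary EC. In macrophage-like cells Cfb was low and lower in EC-iCD45KO, 38.2 and 17.4 CPM, a log2 ratio of -1.14 (-1.30 to -0.97). Its levels were 119 and 26.5 CPM in Rsad2/Ifit3 (log2 ratio -2.17), 57.4 and 30.6 CPM in monocyte-derived and 34.8 and 17.7 CPM in resident macrophages. The Rsad2/Ifit3 cells were 13.04% and 2.45% of the class and held 208 of 525 Cfb UMIs in WT and 32 of 638 in EC-iCD45KO. Without them Cfb was at 26.4 and 17.1 CPM, a log2 ratio of -0.63 (-0.83 to -0.43) that was no longer past 2-fold. Fibroblast markers in macrophage-like cells were at 372 and 353 CPM. Modulated Mmp13/Mmp3 cells had the other order, 54.1 and 112 CPM (log2 ratio 1.05), and the separate modulated SMC-like class had 54.4 and 66.1 CPM.

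C7, a component of the membrane attack complex, had the largest share of its UMIs in fibroblast-like cells of the 9 genes. Its levels there were 597 and 314 CPM. The intervals, 574 to 622 and 299.6 to 328 CPM, lay far apart, and the log2 ratio was -0.93 (-1.02 to -0.84). It was lower in EC-iCD45KO in both clusters of the class, at 386 and 235 CPM (Saa3/Clec3b) and 887 and 379 CPM (Sfrp4/Ccl19), and in both small sub-clusters, 1062 and 604 CPM in Ren1/Penk (log2 ratio -0.81) and 307 and 189 CPM in Saa3/Chil1 cells (-0.70). After thinning 32.5% and 22.7% of fibroblast-like cells had a C7 UMI (39.4% and 29.6% unthinned). The class ratio was -1.15, past 2-fold, in cells of at least 2000 UMIs. Macrophage-like cells had 3.35 and 1.39 CPM.

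Serping1 encodes the C1 inhibitor, which blocks C1r and C1s. It was at 2149.7 and 2563 CPM in fibroblast-like cells, a log2 ratio of 0.25 (0.22 to 0.29), which became -0.019 without the Saa3/Chil1 cells, 0.63 without the Ren1/Penk cells, -0.044 in cells without other classes' markers and 0.59 under a stricter cell filter. Ren1/Penk cells had 3587 and 3087 CPM and Saa3/Chil1 cells 3524 and 3750.2 CPM. After thinning a UMI was found in 92.4% and 88.9% of the Ren1/Penk cells (96.0% and 90.1% unthinned) and in 0.745% and 1.92% of B-like cells. Pericyte-like cells, the mural cells of small vessels, had 647 and 842 CPM, a log2 ratio of 0.38 (0.15 to 0.61). SMC-like cells had 330.4 and 292 CPM, and macrophage-like cells 12.4 and 15.0 CPM, against 6.18 and 14.1 CPM in B-like cells.

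**Figure D4:**
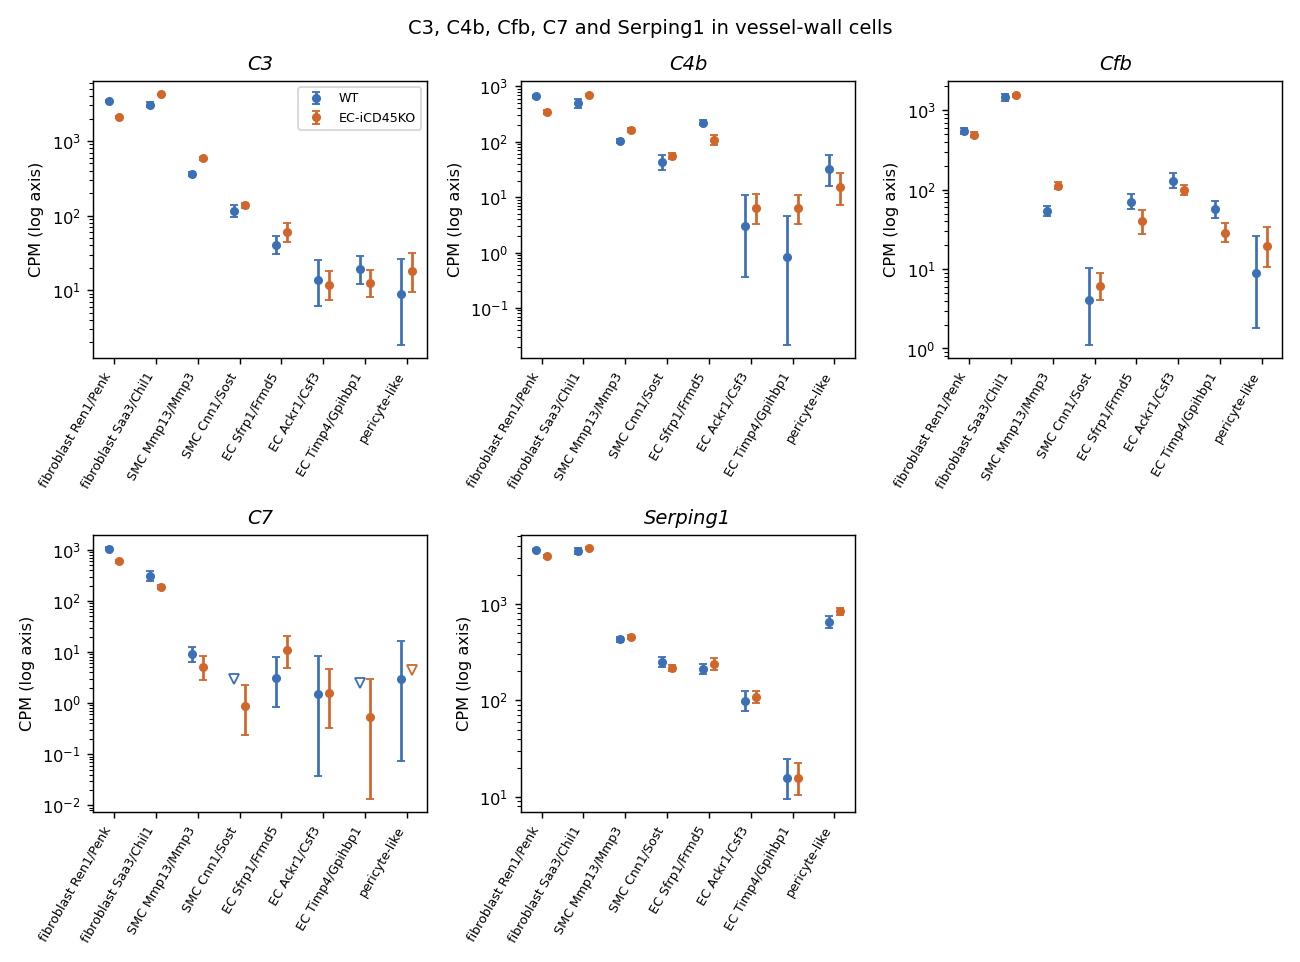
CPM on log axes of C3, C4b, Cfb, C7 and Serping1 in fibroblast, SMC and EC sub-clusters and pericyte-like cells of both libraries, with exact Poisson 95% intervals; open triangles mark the level of 3 UMIs where none was seen. C3 and C4b are lower in EC-iCD45KO in Ren1/Penk and higher in Saa3/Chil1 fibroblasts, and C7 is lower in both.

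C3ar1, the receptor for the C3a fragment, was at 344 CPM (335 to 354) in WT macrophage-like cells and 348 CPM (342 to 354) in those of EC-iCD45KO. The intervals overlapped, with a log2 ratio of 0.014 (-0.035 to 0.062), or -0.10 in cells without other classes' markers. Foamy macrophages had 466 and 406 CPM, Nes/Apbb2 cells 425 and 413 CPM and resident cells 354 and 356 CPM. Monocyte-derived macrophages were lowest, as for C1q, with 140.4 and 248 CPM, a log2 ratio of 0.82 (0.59 to 1.06). In SMC-like cells C3ar1 was at 23.2 and 55.3 CPM beside the macrophage markers given for that class. Across 30 classes and sub-clusters the log2(CPM + 5) of C3ar1 and C1qa had a Pearson r of 0.96 in WT and 0.97 in EC-iCD45KO, a description of units that share libraries, depth and in part cells.

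Counts of genes at least 2-fold apart took in genes whose mean reached 10 CPM in a class, with 20 UMIs or more in all. Of 135 pairs of a gene and a class, 110 passed this minimum, and 36 were higher and 8 lower in EC-iCD45KO. Over all genes 4.11% of 117335 pairs were higher and 5.14% lower. Most of the higher pairs were of the macrophage pattern: 5 each of C1qa and C1qb, 6 of C1qc and 7 of C3ar1. C3 gave 3, Serping1 4 and C4b, Cfb and C7 2 each. In macrophage-like cells 0 genes were higher, so the higher pairs of C1q and C3ar1 were all in other classes. The higher pairs were most numerous in erythroid-like (8 of 8 genes) and chondrocyte-like cells (8 of 9), where 9.82% and 5.3% of all genes were higher. Macrophage markers there were at 3089.7 and 8425 CPM and 977 and 2704 CPM, and fibroblast markers at 3357 and 2967 CPM and 22471 and 25811 CPM. The higher genes were of both patterns, among them C3 at 109.9 and 742 CPM in erythroid-like and 131 and 469 CPM in chondrocyte-like cells, and the part of either marker set in the counts was not tested. Among cells with no UMI of other classes' markers, 42 pairs could be compared, of which 12 were higher and 0 lower. Over all genes in those cells 8.05% were higher and 9.51% lower. Such cells were few in most classes: 414 and 1277 macrophage-like, 40 and 107 SMC-like and 18 and 5 chondrocyte-like. There were 0 and 0 erythroid-like ones, so that class was not in this count.

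Fibroblast-like, macrophage-like, SMC-like and EC-like cells had 0 to 2 genes each past 2-fold. In fibroblast-like cells it was 0 of 9 genes, beside 4.94% of all genes, with a median log2 ratio of 0.27 against -0.051 for all genes. In macrophage-like cells Cfb was the 1 gene of 8, beside 2.11% of all genes, a call that ended without the Rsad2/Ifit3 cells, with a median of -0.12 against -0.036. In SMC-like cells C1qc (219.9 and 441 CPM) and C3ar1 were the 2 genes of 9, both higher, beside 3.9% of all genes. Without the Mmp13/Mmp3 cells their log2 ratios were 0.64 and 0.95, under 2-fold, and without the Cnn1/Sost cells C1qa (1.38) and C1qb (1.34) were past it as well. Without the Fabp5/Saa3 cells C1qa was just past it (1.02). In EC-like cells C4b was the 1 gene of 8 (46.8 and 22.9 CPM, a log2 ratio of -1.03), beside 4.22% of all genes. Without the Sfrp1/Frmd5 arterial cells it was at 14.4 and 15.3 CPM, a log2 ratio of 0.079 (-0.30 to 0.46), and without the Igfbp3/Pgf or the venous cells -0.97 and -0.93, under 2-fold.

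Of the 15 sub-clusters, 8 had genes past 2-fold. In Saa3/Chil1 fibroblasts it was 4 of 9 genes, beside 13.9% of all genes: the C1q chains and C3ar1, all higher, with C1qa at 54.4 and 561 CPM and macrophage markers at 288 and 1911 CPM. In arterial EC led by Igf2 and Klk10 (279 and 106 cells) it was 5 of 7 genes, beside 12.4%: the same 4 genes were lower, with C1qa at 459 and 136 CPM and macrophage markers at 2082 and 656 CPM, and Serping1 was higher, at 74.4 and 169.6 CPM. The macrophage pattern thus moved in opposite directions in these sub-clusters, as the macrophage markers did, whose part was not tested. In Rsad2/Ifit3 macrophages it was 3 of 7 genes, C1qc higher and C3 and Cfb lower, beside 7.73%. In Mmp13/Mmp3 SMC it was 2 of 7, C1qa and Cfb, both higher, beside 2.15%. The others had 1 gene each: C1qa, higher in Cnn1/Sost SMC (1 of 6, beside 2.38%), C3, higher in Fabp5/Saa3 SMC (1 of 8, beside 12.8%), C4b, lower in Sfrp1/Frmd5 EC (1 of 8, beside 7.49%), and Cfb, lower in EC led by Igfbp3 and Pgf (1 of 8, beside 11.7%).

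The genes most alike to each of the 9 over the 30 units followed the same 2 patterns. They were ranked by the mean Pearson r of the 2 libraries among 7003 genes, with the 9 genes and the class markers left out. The C1q chains were nearer to one another than to any of these, with r of 0.996 and 0.997 for C1qa and C1qb. Fcgr3, an IgG receptor gene, Kcnk13, a potassium channel gene, and Mpeg1, which encodes perforin-2, were the 3 nearest to each C1q chain and to C3ar1 (0.96 for C1qa and Fcgr3). C3 was nearest to Fbln1 (0.91), Mmp3 and Clec11a, and C7 to Fbln1 (0.95), Scara5 and Ccbe1. C4b was nearest to Nfasc (0.86), Plxdc2 and Col14a1, and Cfb to Bnc2 (0.83), Il33 and Tspan11. Serping1 was nearest to Rbms3 (0.95), C1ra and Nhs, so a complement protease gene stood second on its list.

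Of 46 other complement genes in the matrix, 20 reached 50 CPM in some class or sub-cluster. C1ra and C1s1, the proteases that C1q activates, were highest in fibroblast-like cells among the classes, at 271 and 304 CPM and 285 and 311 CPM, as was C2, their substrate, at 154 and 148 CPM. C1q and its proteases thus had their highest levels in different classes. Properdin (Cfp), which stabilises the alternative convertase, was highest in dendritic-cell-like cells (778 and 716 CPM). Of the 6 terminal genes besides C7, C6 alone reached 50 CPM, in Saa3/Chil1 fibroblasts (66.1 and 23.9 CPM), a gene outside the naming rule that was named after its values were seen.

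Regulators were spread over several classes. Among soluble ones, clusterin (Clu) was highest of the classes in chondrocyte-like cells (4071 and 7295 CPM), while the Mmp13/Mmp3 SMC sub-cluster had 5773 and 6057 CPM, and vitronectin (Vtn) was highest in pericyte-like cells (62.0 and 98.6 CPM). On cell surfaces, the regulator gene Cd55 was highest in B-like (222 and 236 CPM), Cd59a in Schwann-like (412 and 455 CPM) and Cr1l in EC-like cells (116 and 119 CPM). Receptor genes other than C3ar1 were mostly leukocyte genes: C5ar1, for C5a, was highest in neutrophil-like (494 and 572 CPM), Cr2 in B-like (149.7 and 158 CPM) and Itgb2, a subunit of complement receptors 3 and 4, in macrophage-like cells (154 and 169.7 CPM). Over the 15 classes 209 pairs of these 46 genes passed the minimum, with 43 higher and 23 lower, beside 4.11% and 5.14% of all genes. One of the lower pairs was Cr2 in fibroblast-like cells, at 28.0 and 0.844 CPM, where B-cell markers were at 1646 and 357 CPM.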

How the data were processed

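Single-cell RNA-seq was measured in 2 aortic libraries. The deposited values are whole UMI counts per gene and cell barcode, which the authors made with Cell Ranger 7.1.0 on mm10, per the file headers and the submitters' processing notes. The settings for introns and cell calling were not given in the sources used here. Unfiltered totals were 92058043 (WT) and 88967918 UMIs (EC-iCD45KO).

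Cells needed 500 UMIs, 300 genes and at most 10% mitochondrial UMIs. Scrublet marked 3 and 0 cells as doublets and had not worked, so the top 10% of cells by its score were removed from each library. With scanpy 1.11.5, 2000 variable genes, 30 principal components, 20 neighbours and Leiden resolution 1 gave 30 clusters. Clusters were named by marker lists, with thresholds set after the data were seen, so a difference from the study's own cell types may come from these names. Of 55 sub-clusters, 15 were used.

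UMIs were summed per class and library. Poisson, Clopper-Pearson and conditional binomial intervals came from scipy 1.17.1. With 1 library per group no test was run. The interval functions and the 2-fold calls were tested on simulated data. TMM factors came from edgeR 4.0.16 as an alternative scaling only. The 9 genes and all lists were chosen with earlier results of these data known. Named genes were the 9, and for each the 3 genes with the highest mean correlation of log2(CPM + 5) across classes and sub-clusters, outside the 9 and the class markers. Other complement genes of at least 50 CPM in a class were named as well. C6, which reached 50 CPM in a sub-cluster only, was named outside this rule. Some genes under this rule are not reported here. Promoters came from RefSeq (GRCm38.p6; 5 of 9 matched) and gene positions from a GENCODE M21 annotation of GRCm38.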

Additional observations from a re-analysis of the deposited data

How the results depend on the processing

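The log2 ratio of each gene was recomputed in its highest class, macrophage-like cells for the C1q chains and C3ar1 and fibroblast-like cells for the others, under 9 alternatives. The values given are those outside the counting interval of the reported ratio. With a stricter cell filter (500 genes and 5% mitochondrial UMIs) the ratios were -0.022 (C1qa), -0.052 (C1qb), -0.012 (C1qc), 0.55 (C3), 0.38 (C4b), 1.12 (Cfb), -0.63 (C7), 0.59 (Serping1). With a looser filter (200 genes and 20%) the ratios were -0.082 (C1qa), -0.10 (C1qb), -0.079 (C1qc), 0.38 (C3), 0.15 (C4b), 0.92 (Cfb), -0.80 (C7), 0.36 (Serping1). With TMM scaling the ratios were -0.046 (C1qa), -0.066 (C1qb), -0.049 (C1qc), 0.36 (C3), 0.87 (Cfb), 0.34 (Serping1), 0.072 (C3ar1). In cells with no UMI of other classes' markers the ratios were -0.20 (C1qa), -0.16 (C1qb), -0.26 (C1qc), -0.038 (C3), -0.25 (C4b), 0.085 (Cfb), -0.65 (C7), -0.044 (Serping1), -0.10 (C3ar1). In cells of at least 2000 UMIs, an alternative chosen after seeing the data, the ratios were -0.13 (C1qa), -0.15 (C1qb), 0.090 (C3), -0.077 (C4b), 0.67 (Cfb), -1.15 (C7), 0.057 (Serping1). With the mean of single-cell CPM the ratios were -0.087 (C1qa), -0.11 (C1qb), -0.13 (C1qc), -0.075 (C4b), 0.58 (Cfb), -0.73 (C7), -0.039 (C3ar1). Each of the 15 sub-clusters used, of 55, was also left out of its class in turn, chosen after seeing the data. In fibroblast-like cells these were the Ren1/Penk and Saa3/Chil1 cells only, so most cells of that class were never left out. Without Saa3/Chil1 cells the ratios were -0.26 (C3), -0.52 (C4b), 0.089 (Cfb), -0.74 (C7), -0.019 (Serping1). Without Ren1/Penk cells the ratios were 0.85 (C3), 0.63 (C4b), 1.10 (Cfb), 0.63 (Serping1). Without resident macrophages the ratios were -0.13 (C1qa), -0.15 (C1qb), -0.12 (C1qc). Without Nes/Apbb2 macrophages the ratios were -0.058 (C1qa), -0.070 (C1qb), -0.075 (C1qc), 0.082 (C3ar1). Without monocyte-derived macrophages the ratios were 0.039 (C1qa), 0.0084 (C1qb), 0.041 (C1qc). Without foamy macrophages the ratios were -0.071 (C1qa), -0.082 (C1qc). Without Rsad2/Ifit3 macrophages the ratios were -0.20 (C1qa), -0.22 (C1qb), -0.22 (C1qc), -0.039 (C3ar1). C4b in EC-like cells, at -1.03, became 0.079 without Sfrp1/Frmd5 cells. Cfb and C7 kept their sign in fibroblast-like cells under all of these, while the other 7 genes did not, and the causes were not tested. The count of pairs past 2-fold was 12 (12 higher, 0 lower) in cells with no UMI of other classes' markers, where fewer pairs reached the minimum and 8.05% and 9.51% of all pairs were higher and lower. It was 56 (40 higher, 16 lower) with no minimum and 0.5 CPM added, beside 10.8% and 13%, against 44 beside 4.11% and 5.14%. No doublet removal, clustering at resolution 2 and leaving out mitochondrial, ribosomal protein and haemoglobin genes moved none of the 9 ratios outside that interval. No paired analysis was possible because there was just 1 library on each side. C7, Cfb and C4b reached the minimum in 6, 9 and 11 of the 15 classes. A pair could fall under it by level alone: C7 had 46 and 51 UMIs in macrophage-like cells but 3.35 and 1.39 CPM.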
